A study of Homo sapiens with 12 samples.

Results

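The endoplasmic reticulum (ER) chaperones and the unfolded protein response were examined in SJSA-1 cells, an established human osteosarcoma cell line. The set held 32 genes named by symbol, and all 32 were found by Ensembl identifier among the 59248 rows of the count table. All 32 passed the filter on low counts, which left 16489 genes for testing. The set held 8 stress sensors and transcription factors, 11 chaperones and cochaperones, 6 oxidoreductases, 5 genes of ER-associated degradation and 2 subunits of the translocon. PPP1R15A, a phosphatase subunit of the stress response, was counted with the sensors and transcription factors although it is neither.

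The series compared 6 libraries of cells with a short hairpin RNA against the transcription factor RUNX2 (sh1) with 6 libraries of cells with a scramble hairpin (shNC). Both hairpins were delivered by a lentivirus that also carried EGFP and puromycin resistance, and both groups were selected as stable pools. A single hairpin against RUNX2 was compared with a single control. The labels and methods do not say whether libraries came from separate cultures. The p-values therefore set the difference between the groups against the scatter of these libraries only, and that scatter may be technical.

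The ER folds and modifies secreted and membrane proteins. When unfolded proteins build up, the sensors ERN1 (IRE1), EIF2AK3 (PERK) and ATF6 start the unfolded protein response. ERN1 removes a short intron from XBP1 mRNA, EIF2AK3 slows translation and favours translation of ATF4, and ATF6 is cut in the Golgi to release a transcription factor. These factors raise chaperones, oxidoreductases and the machinery that returns misfolded proteins to the cytosol for degradation. Bone cells secrete large amounts of collagen and matrix proteins and so depend on this machinery.

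The total gene count per library ran from 11239638 to 16346022 in sh1 (median 15451506) and from 15328312 to 19992974 in shNC (median 17555418). sh1 replicate 3 stood apart, with the lowest total, 27392 genes detected (28612 to 28873 in the rest of sh1), and 1.23% of its counts in entries without an Ensembl identifier (0.468% to 0.531% in the rest of sh1). RUNX2 itself averaged 24.6 ± 1.95 CPM (counts scaled by the library total and the TMM factor) in sh1 and 39.8 ± 4.31 CPM in shNC (SD, n = 6 each). Its log2 fold change, sh1 over shNC as for all genes here, was -0.69 with a standard error (SE) of 0.076 (adjusted p = 4.6e-06, edgeR's quasi-likelihood test). Over the 12 libraries, VIM, SPARC, CDK4, MDM2 and CDH11 averaged 7.59 to 386 FPKM (fragment counts scaled by gene length and library total), while COL1A2 was near absent at 0.0608 FPKM. By the same edgeR test, SPARC (0.66, adjusted p = 5.6e-07), CDH11 (0.93, adjusted p = 3.2e-06) and MDM2 (0.30, adjusted p = 0.0042) were higher in sh1. VIM, CDK4 and COL1A2 did not pass it. The 11 epithelial, haematopoietic and endothelial markers averaged 0 to 0.310 FPKM. The whole RNA of a culture was measured, so fewer cells of a kind and less RNA per cell cannot be told apart.

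The ER stress element (ERSE), CCAAT followed by 9 bases of any kind and CCACG, is a promoter element through which ATF6 and XBP1 act together with the CCAAT-binding factor NF-Y. It was searched on both strands in the RefSeq promoter windows (GRCh38.p14, 250 bases before to 50 bases after each start), of which 31 of the 32 genes had at least 1. No window was used for PDIA3. The element was present in 8 of these 31 genes, and in 25 of 27305 genes of the table (0.0916%). The shorter ERSE-II, ATTGG followed by 1 base of any kind and CCACG, was present in 3 of the 31 genes and in 19 of the 27305 (0.0696%). The following stretches are shown because this element is what is known to link such genes to the response. They are written along the strand of the gene, and capitals mark the 2 boxes of each element, CCAAT and CCACG for ERSE and ATTGG and CCACG for ERSE-II, or their reverse complements where the element lies on the other strand.
HSPA5 (chr9:125241381-125241419, minus strand): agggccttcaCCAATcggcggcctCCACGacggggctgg
HSP90B1, far from the start (chr12:103930206-103930244, plus strand): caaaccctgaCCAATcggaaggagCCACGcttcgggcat
HSP90B1, near the start (chr12:103930311-103930349, plus strand): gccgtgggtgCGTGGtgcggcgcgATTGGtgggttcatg
CALR (chr19:12938374-12938412, plus strand): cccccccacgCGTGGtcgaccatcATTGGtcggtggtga
CANX (chr5:179698768-179698806, plus strand): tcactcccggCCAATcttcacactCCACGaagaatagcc
PDIA6 (chr2:10812843-10812881, minus strand): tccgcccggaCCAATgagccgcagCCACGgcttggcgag
XBP1 (chr22:28800593-28800631, minus strand): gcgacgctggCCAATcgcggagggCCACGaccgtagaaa
CRELD2 (chr22:49918544-49918582, plus strand): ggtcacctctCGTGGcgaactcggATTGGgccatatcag
ERO1B (chr1:236282173-236282208, minus strand): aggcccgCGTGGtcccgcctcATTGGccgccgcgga
HERPUD1, ERSE-II (chr16:56932015-56932045, plus strand): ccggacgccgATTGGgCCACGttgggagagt
SDF2L1, ERSE-II (chr22:21642104-21642134, plus strand): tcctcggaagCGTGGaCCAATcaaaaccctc
HYOU1, ERSE-II far from the start (chr11:119057370-119057400, minus strand): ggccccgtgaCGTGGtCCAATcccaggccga
HYOU1, ERSE-II near the start (chr11:119057264-119057294, minus strand): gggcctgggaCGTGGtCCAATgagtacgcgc

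The ERSE thus holds the boxes CCAAT and CCACG, and these short boxes alone were common. CCAAT was present in 24 of the 31 genes and in 39.7% of all genes of the table, and CCACG in 22 of the 31 and in 42.1% of all. The core of the unfolded protein response element, TGACGTG, was present in HYOU1, where it overlaps an ERSE-II, and in SEC61A1, against 2.40% of all genes. The RUNX motif TGTGGT was present in CANX, CREB3L2, ERO1B and PDIA6, 4 of the 31 genes, against 15.6% of all genes. A match in any window of a gene counted. In CREB3L2 the RUNX match lay in a window inside the gene (chr7:137932939-137933238). In PDIA6 it lay in another window than the ERSE. CANX had 4 distinct windows, and not all of them held the RUNX match. A match describes the letters of the window and is no measure of binding.

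Of the 32 ER genes, 3 were higher in sh1 (CREB3L1, ATF6B and ERO1A) and 9 were lower (ERN1, XBP1, CREB3L2, HSPA5, CANX, DNAJB11, CRELD2, MANF and PDIA4) at an adjusted p under 0.05, in edgeR's quasi-likelihood test over all 16489 genes with Benjamini-Hochberg adjustment. Over all genes tested, 12.8% were higher and 13.3% were lower, 26.1% in all. Among the 11112 genes at least as abundant as the lowest ER gene, 14.2% were higher and 16.6% were lower. The lower calls, 28.1% of the ER genes, stood above that background. The higher calls, 9.38% of the ER genes, lay near it, slightly under. No test compared these shares. The median log2 fold change was -0.07 over the ER genes and 0.00 over all genes tested, and 22 of the 32 lay below 0, against 50.7% of all genes. The median size of the change was 0.15 in the ER genes and 0.16 in all genes tested. Only CREB3L1 also passed a log2 fold change of at least 1 in either direction, against 2.09% of all genes tested.

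In CPM, the libraries of the groups did not overlap in 5 ER genes. CREB3L1 and ATF6B were higher in every sh1 library, as were 5.84% of all genes tested. CREB3L2, CANX and PDIA4 were lower in every sh1 library, as were 6.08% of all genes tested. The lower calls changed with the libraries used. The count of lower genes ran from 4 to 8 when each library was left out in turn. A fit with fewer libraries has less power to call any gene. The share of all genes that were lower in such fits is not given here. At most 7 of the 9 were kept on leaving out any single library. The count was 4 without sh1 replicate 3, without sh1 replicate 5 or without shNC replicate 5. It was 5 without sh1 replicate 1, without sh1 replicate 6 or without shNC replicate 2.

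Among the 17 chaperones, cochaperones and oxidoreductases, sh1 replicate 3 was the lowest sh1 library in 11, and shNC replicate 1 was the highest shNC library in 12. Without both of these libraries, a setting chosen after the data had been seen, 3 ER genes were lower (ERN1, XBP1 and PDIA4) and 3 were higher. Together the 32 genes took 0.906% to 0.976% of all counts in sh1 (0.953 ± 0.0253, SD, n = 6) and 0.972% to 1.06% in shNC (1.01 ± 0.0333, SD, n = 6).

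**Figure D1:**
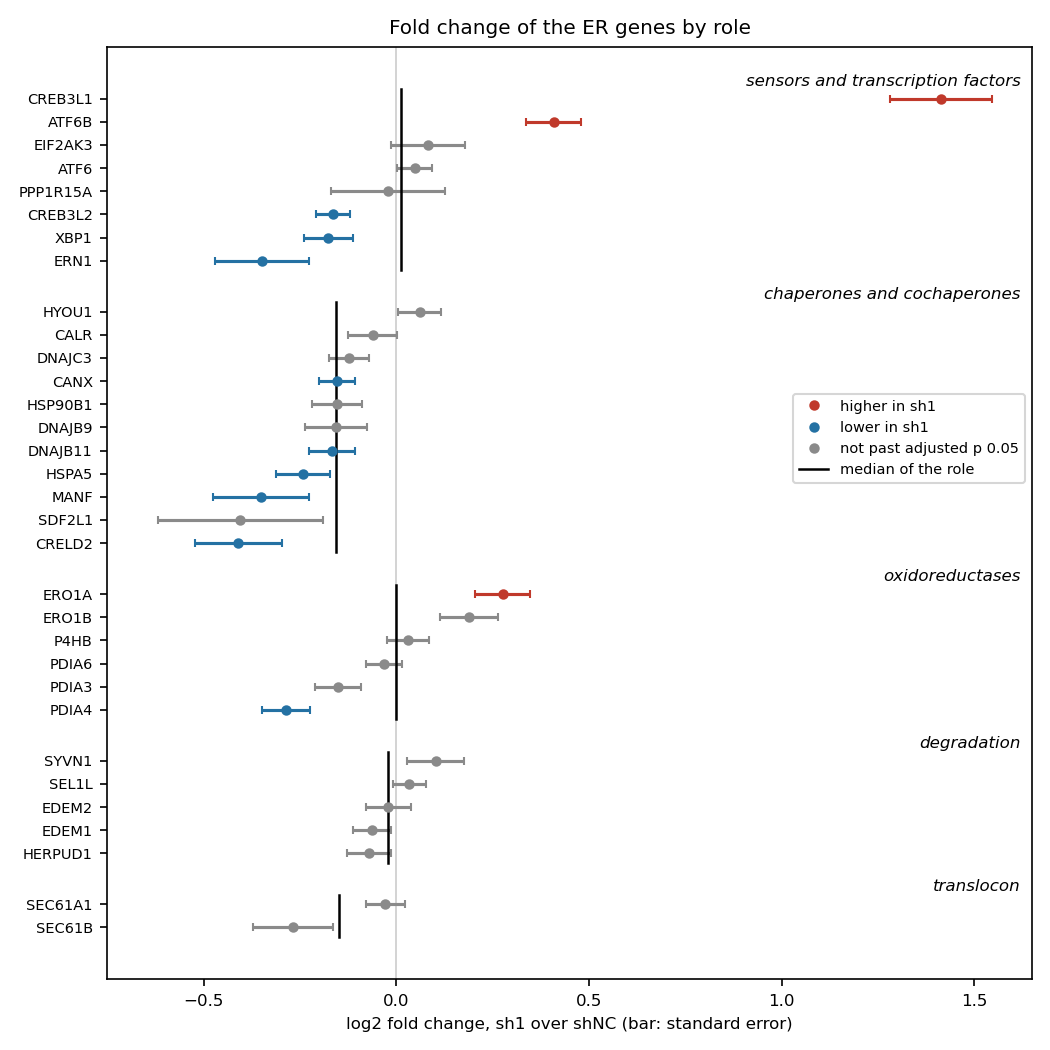
Log2 fold change, sh1 over shNC, of the 32 ER genes, grouped by role, with points for genes, bars for the standard error and a vertical line for the median of each role. The chaperones and cochaperones lie around a median of -0.16 with 10 of 11 genes below 0, while CREB3L1 lies apart at 1.41.

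The plot of fold changes by role shows how the roles differed. The chaperones and cochaperones had a median log2 fold change of -0.16, with 10 of 11 below 0, 5 lower and none higher. At an unadjusted p under 0.05, 7 were lower and 0 higher by edgeR. At an adjusted p under 0.05, DESeq2 called 5 lower and limma 3, with 0 higher by either. The sensors and transcription factors, PPP1R15A included, had a median of 0.01 and the widest range, -0.35 to 1.41, with 2 higher and 3 lower. The oxidoreductases had a median of 0.00 with 1 higher and 1 lower. The 5 degradation genes lay between -0.07 and 0.10 (median -0.02) and none of them passed the test, nor an unadjusted p under 0.05. DESeq2 and limma called 0 of them at an adjusted p under 0.05. Both translocon subunits lay below 0 and neither passed it, though SEC61B had an unadjusted p under 0.05. These medians describe the roles and no test compared them.

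Per gene length, the luminal chaperones led the set. CALR, the calcium-binding lectin chaperone calreticulin, averaged 445 ± 36.0 FPKM in sh1 and 459 ± 32.5 FPKM in shNC. HSPA5 (BiP), the Hsp70 chaperone of the ER, averaged 296 ± 23.0 FPKM in sh1 and 345 ± 32.2 FPKM in shNC. HSP90B1 (GRP94), the Hsp90 of the ER, averaged 305 ± 20.8 FPKM in sh1 and 335 ± 27.6 FPKM in shNC (SD, n = 6 each). Within libraries, HSP90B1 lay above HSPA5 in every sh1 library but replicate 2. In shNC, HSP90B1 lay above HSPA5 in replicates 1, 2 and 3 and below it in replicates 4, 5 and 6. Their order thus differed between libraries and was not tested. CANX, the membrane-bound lectin chaperone calnexin, came next with 201 ± 7.15 FPKM in sh1 and 221 ± 8.83 FPKM in shNC. The lowest gene was CREB3L1, at 2.30 ± 0.246 FPKM in sh1 and 0.854 ± 0.193 FPKM in shNC. Among the sensors, ATF6 averaged 16.2 FPKM in sh1 and 15.5 FPKM in shNC, ERN1 3.39 FPKM in sh1 and 4.29 FPKM in shNC, and EIF2AK3 2.83 FPKM in sh1 and 2.64 FPKM in shNC. The sensors and transcription factors together had a median of 15.2 FPKM (1.58 to 88.4), with PPP1R15A the highest and XBP1 next at 23.6 FPKM. The chaperones and cochaperones had a median of 24.1 FPKM (2.68 to 452), so the levels of these roles overlapped.

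**Figure D2:**
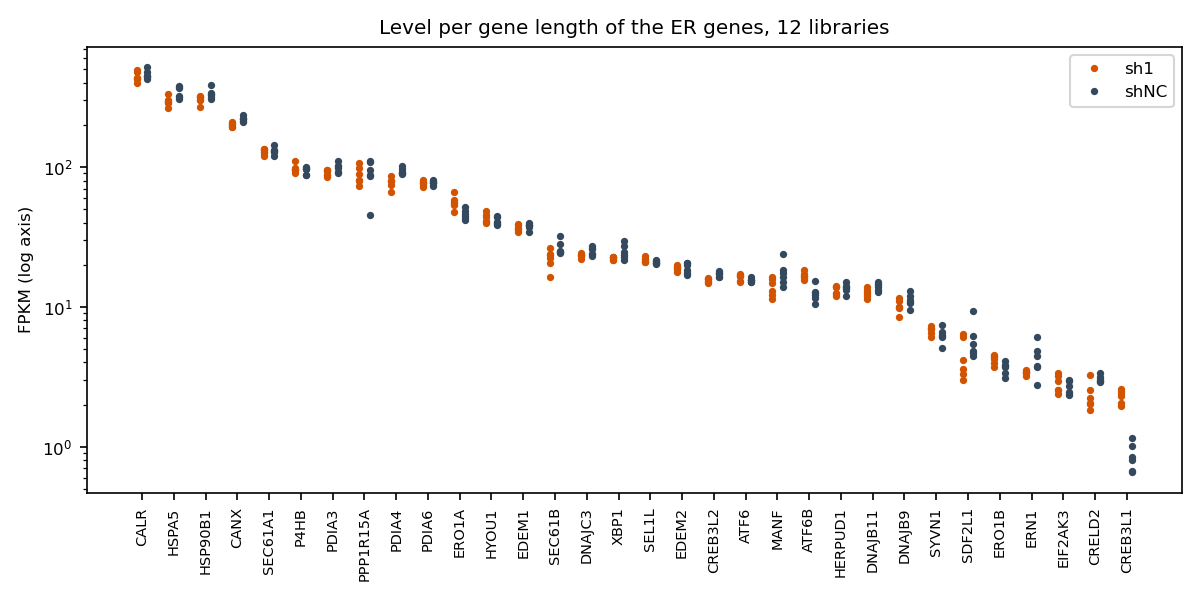
FPKM of each ER gene in the 12 libraries on a log axis, ordered by the mean, with sh1 left of shNC and a point for each library. The levels run from CALR at 445 FPKM in sh1 and 459 FPKM in shNC to CREB3L1 at 2.30 FPKM in sh1 and 0.854 FPKM in shNC, the gene where the groups lie farthest apart.

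Among the transcription factors, CREB3L1 (OASIS) had the largest change of the set. It is held in the ER membrane, is released by proteolysis in the Golgi and, in mouse osteoblasts, acts at the type I collagen gene. CREB3L1 (ENSG00000157613, chromosome 11 from 46277662 to 46321409, GRCh38, GENCODE 44) ran from 7.90 to 10.3 CPM in sh1 (median 9.49) and from 2.63 to 4.66 CPM in shNC (median 3.35). Every sh1 library lay above every shNC library, with sh1 replicate 2 the lowest of sh1 and shNC replicate 3 the highest of shNC. This was a log2 fold change of 1.41 (SE 0.13, adjusted p = 7.2e-07), or 266% of the shNC level. On the log2(FPKM + 1) scale, which understates the change of low genes, limma gave 0.83. The call was kept under all 24 alternatives.

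CREB3L2 (BBF2H7), the closest relative of CREB3L1, is processed in the same way and is known for its role in secretion by mouse cartilage cells. CREB3L2 ran from 129.6 to 142 CPM in sh1 (median 135) and from 142 to 158 CPM in shNC (median 155). All sh1 libraries lay below the shNC libraries, although sh1 replicate 4 and shNC replicate 2 nearly met. In log2 terms the fold change was -0.16 (SE 0.044, adjusted p = 0.010). Without a filter on low counts adjusted p was 0.052. Both CREB3L1 and CREB3L2 separated the libraries by group, in opposite directions.

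ATF6B is the close relative of the sensor ATF6, and both are membrane-bound transcription factors cut in the Golgi. ATF6B (ENSG00000213676, chromosome 6 from 32115264 to 32128253) ran from 55.6 to 66.4 CPM in sh1 (median 60.0) and from 39.3 to 54.9 CPM in shNC (median 45.2). The groups did not overlap, though shNC replicate 4 came close to sh1 replicate 6. Its log2 fold change was 0.41 (SE 0.071, adjusted p = 0.00039). ATF6 ran from 118 to 135 CPM in sh1 (median 129) and from 118 to 128 CPM in shNC (median 124), with a log2 fold change of 0.05 (adjusted p = 0.48). In sh1, 4 of 6 libraries lay above every shNC library and 1 lay below all of them, by little, so the groups of ATF6 overlapped.

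ERN1, the kinase and endonuclease that splices XBP1 mRNA, was tight in sh1 and scattered in shNC. It ran from 34.9 to 38.2 CPM in sh1 (median 36.9) and from 31.4 to 65.8 CPM in shNC (median 44.8), with coefficients of variation of 2.92% in sh1 and 25.3% in shNC. shNC replicate 1 was the lowest of all 12 libraries, and the other 5 shNC libraries lay above every sh1 library. edgeR gave a log2 fold change of -0.35 (SE 0.12, adjusted p = 0.043). The call was lost on leaving out any sh1 library or shNC replicate 2, 3 or 4 (adjusted p = 0.060 to 0.11), and the log2 fold change was -0.22 without shNC replicate 4.

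XBP1, whose spliced mRNA encodes the active transcription factor, showed the same contrast in spread. XBP1 ran from 64.9 to 69.0 CPM in sh1 (median 67.3) and from 67.8 to 88.9 CPM in shNC (median 73.7), with coefficients of variation of 2.45% in sh1 and 10.9% in shNC. shNC replicates 1 and 6 lay within the sh1 range and the other shNC libraries lay above it. On the log2 scale the change was -0.18 (SE 0.063, adjusted p = 0.047). The call was lost on leaving out any sh1 library or shNC replicate 2, 3, 4 or 5 (adjusted p = 0.075 to 0.13), and the log2 fold change was -0.12 without shNC replicate 4. Gene counts do not separate spliced from unspliced XBP1 mRNA. The spreads of ERN1 and XBP1 were not compared by a test, and other genes differed in spread too. Coefficients of variation were 9.36% in sh1 and 22.3% in shNC for SESN2. For CRELD2 they went the other way, at 22.1% in sh1 and 6.65% in shNC.

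Neither EIF2AK3 nor PPP1R15A, which act on the same initiation factor, passed the test. EIF2AK3, the kinase that phosphorylates the initiation factor eIF2 alpha, had a median of 14.9 CPM in sh1 and 14.3 CPM in shNC (log2 fold change 0.08, adjusted p = 0.57). PPP1R15A (GADD34), the phosphatase subunit that reverses this phosphorylation, ran from 225 to 329 CPM in sh1 (median 263) and from 146 to 337 CPM in shNC (median 283). shNC replicate 1 lay apart at 146 CPM, and the log2 fold change of -0.02 (adjusted p = 0.93) took either sign on leaving out single libraries.

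**Figure D3:**
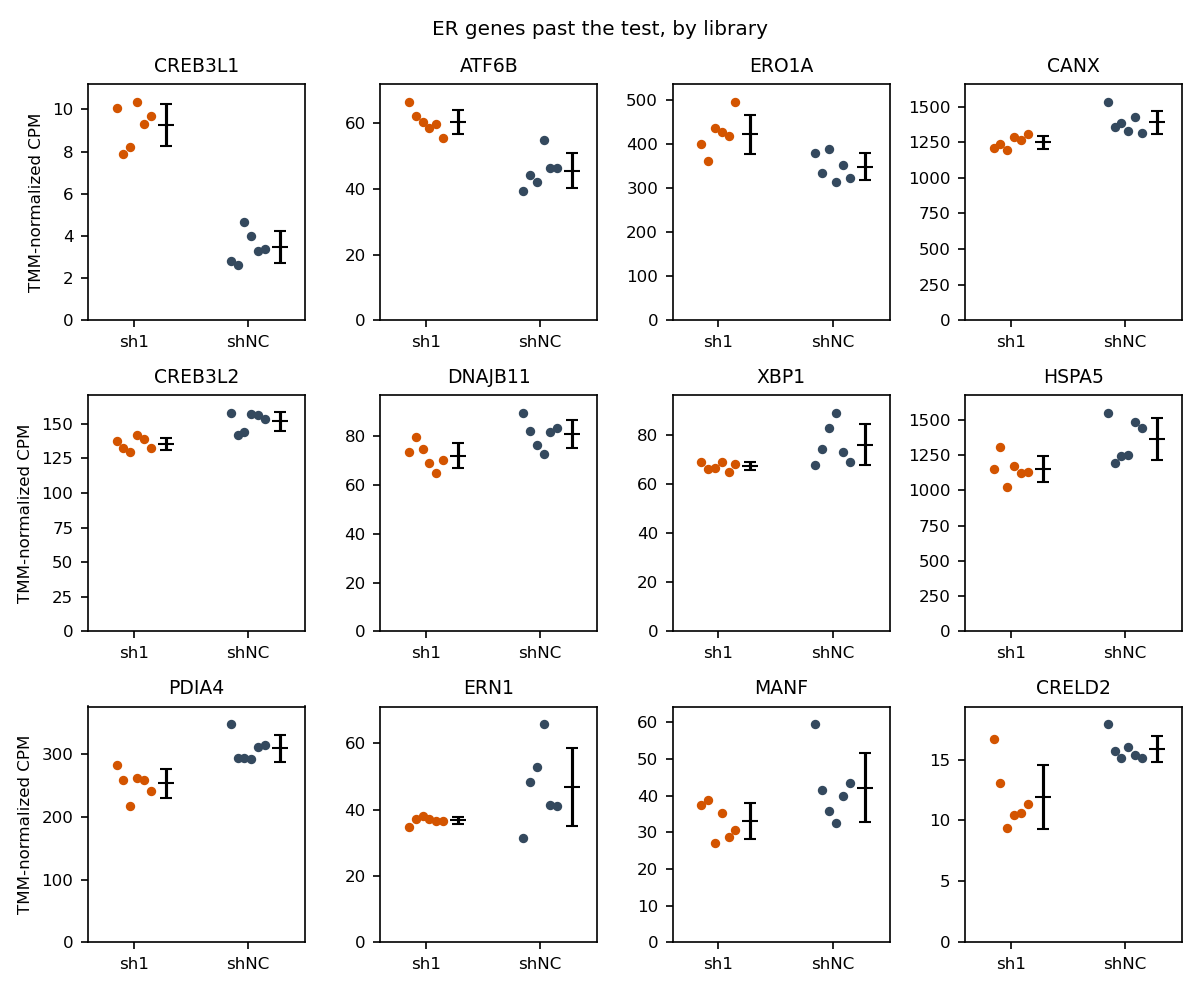
TMM-normalized CPM of the 12 ER genes past the test in each library, sh1 left and shNC right, where each point is a library, in replicate order, and bars give mean and SD (n = 6). CREB3L1, at 7.90 to 10.3 in sh1 and 2.63 to 4.66 in shNC, separates the groups most widely, and ERN1 and XBP1 are scattered in shNC but not in sh1.

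HSPA5, the master chaperone that also binds and restrains the sensors, was lower in sh1. It ran from 1023 to 1309 CPM in sh1 (median 1139.7) and from 1197 to 1549 CPM in shNC (median 1348). In sh1, 5 of 6 libraries lay below every shNC library, and sh1 replicate 2 lay within the shNC range. This was a log2 fold change of -0.24 (SE 0.070, adjusted p = 0.016). Without shNC replicate 5 the call was lost (log2 fold change -0.21, adjusted p = 0.051), as it was without both sh1 replicate 3 and shNC replicate 1 (-0.16, adjusted p = 0.076).

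The lectin chaperones CANX and CALR hold glycoproteins in the calnexin cycle. CANX ran from 1194 to 1306.5 CPM in sh1 (median 1249.6) and from 1312 to 1532 CPM in shNC (median 1372). In CPM the groups did not overlap, but sh1 replicate 6 and shNC replicate 6 lay next to each other. In FPKM the groups of CANX did overlap, with sh1 replicate 6 at 211.05 and shNC replicate 6 at 210.74. In log2 terms the fold change was -0.15 (SE 0.047, adjusted p = 0.022), and leaving out sh1 replicate 1, 2, 3 or 5 or shNC replicate 5 ended the call (adjusted p = 0.053 to 0.063). CALR ran from 1071 to 1344 CPM in sh1 (median 1179.9) and from 1158 to 1459 CPM in shNC (median 1220.3), with a log2 fold change of -0.06 (adjusted p = 0.52). CALR overlapped widely between the groups and its log2 fold change was 0.03 without sh1 replicate 3 and shNC replicate 1.

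CRELD2 and MANF are small luminal proteins that are induced by ER stress and can be secreted. CRELD2 ran from 9.37 to 16.7 CPM in sh1 (median 11.0) and from 15.1 to 17.9 CPM in shNC (median 15.5). All sh1 libraries but replicate 1 lay below every shNC library. Its log2 fold change was -0.41 (SE 0.11, adjusted p = 0.012), or 75.3% of the shNC level, and adjusted p was 0.051 without both sh1 replicate 3 and shNC replicate 1. The gene overlaps ALG12 on the opposite strand, which had a median of 10.5 CPM and a log2 fold change of -0.04, and the library kit does not mark strand.

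MANF, which binds HSPA5 and steadies its complexes with clients, ran from 27.04 to 38.897 CPM in sh1 (median 32.9) and from 32.6 to 59.5 CPM in shNC (median 40.7). shNC replicate 1 was by far the highest library, and the groups overlapped. edgeR gave a log2 fold change of -0.35 (SE 0.12, adjusted p = 0.044). The call was lost on leaving out sh1 replicate 3, 4, 5 or 6 or shNC replicate 1, 2, 5 or 6 (adjusted p = 0.057 to 0.11). Without shNC replicate 1 the fold change was -0.23, and without both sh1 replicate 3 and shNC replicate 1 it was -0.17 (adjusted p = 0.20).

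The J proteins DNAJB11, DNAJB9 and DNAJC3 stimulate the ATPase of HSPA5. DNAJB11 (ERdj3) ran from 65.0 to 79.8 CPM in sh1 (median 71.8) and from 72.7 to 89.5 CPM in shNC (median 82.0). The groups overlapped, with shNC replicate 4 the lowest of shNC and sh1 replicate 2 the highest of sh1. On the log2 scale the change was -0.17 (SE 0.060, adjusted p = 0.045), and the call was kept only on leaving out sh1 replicate 2, shNC replicate 3 or shNC replicate 4, and was lost without any other library (adjusted p = 0.057 to 0.14). DNAJB9 (ERdj4), which returns ERN1 to its inactive state, had a log2 fold change of -0.16 (adjusted p = 0.16) and DNAJC3 (p58IPK) had one of -0.12 (adjusted p = 0.089). Neither of them passed the test with all libraries. DNAJC3 narrowly passed it without shNC replicate 6 (-0.15, adjusted p = 0.050 after rounding). DNAJB11 overlaps TBCCD1 on the opposite strand, at a median of 20.4 CPM.

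The other chaperones did not pass the test. HSP90B1 ran from 1248 to 1512 CPM in sh1 (median 1448) and from 1434 to 1884 CPM in shNC (median 1554), with a log2 fold change of -0.16 (adjusted p = 0.087). HYOU1 (GRP170), a nucleotide exchange factor for HSPA5, was the only chaperone gene with a positive value, 0.06 (adjusted p = 0.45). SDF2L1, a partner of DNAJB11 in keeping misfolded proteins soluble, was scarce, at medians of 4.22 CPM in sh1 and 5.69 CPM in shNC. Its log2 fold change of -0.40 carried a standard error of 0.21 (adjusted p = 0.18), and shNC replicate 1 lay apart at 10.6 CPM.

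Among the oxidoreductases, PDIA4 was lower and ERO1A was higher. PDIA4 (ERp72), a disulfide isomerase, ran from 217 to 283 CPM in sh1 (median 259) and from 291 to 348 CPM in shNC (median 303). The groups did not overlap, with sh1 replicate 3 the lowest and shNC replicate 1 the highest library. This was a log2 fold change of -0.29 (SE 0.063, adjusted p = 0.0025), and the call held under all 24 alternatives.

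ERO1A is the oxidase that hands disulfide bonds to the isomerases and is known to be induced by hypoxia. It ran from 361 to 496 CPM in sh1 (median 422) and from 315 to 388 CPM in shNC (median 345). In sh1, 5 of 6 libraries lay above every shNC library, and replicate 2 lay within the shNC range. In log2 terms the fold change was 0.28 (SE 0.071, adjusted p = 0.0078), a call also kept under all 24 alternatives. ERO1B, its relative, ran from 19.96 to 24.0 CPM in sh1 (median 23.1) and from 17.3 to 22.4 CPM in shNC (median 19.97), with a log2 fold change of 0.19 (adjusted p = 0.070). ERO1B overlaps GPR137B on the opposite strand, at a median of 13.6 CPM. It passed the test without sh1 replicate 4 (0.23, adjusted p = 0.037) and without shNC replicate 5 (0.24, adjusted p = 0.035).

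The other 3 isomerases did not pass the test. P4HB (PDI), which is also a subunit of the collagen prolyl hydroxylase, had a log2 fold change of 0.03 (adjusted p = 0.71), PDIA6 (P5) one of -0.03 (adjusted p = 0.64) and PDIA3 (ERp57), the partner of CALR and CANX, one of -0.15 (adjusted p = 0.068). PDIA3 ran from 355 to 402 CPM in sh1 (median 386) and from 383 to 489 CPM in shNC (median 424), and passed the test without shNC replicate 4 (-0.17, adjusted p = 0.036). The processed pseudogene PDIA3P1, which can share reads with PDIA3, had medians of 19.98 CPM in sh1 and 22.5 CPM in shNC (log2 fold change -0.15, adjusted p = 0.30).

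ER-associated degradation showed small changes, with log2 fold changes between -0.07 and 0.10. SEL1L and SYVN1 (HRD1), the scaffold and the ubiquitin ligase of the retrotranslocation complex, had log2 fold changes of 0.03 (adjusted p = 0.59) and 0.10 (adjusted p = 0.33). SYVN1 shares its locus with FAU and MRPL49, both more abundant, so its counts are uncertain. HERPUD1, an ER stress-induced partner of this complex, had -0.07 (adjusted p = 0.39), and EDEM1 and EDEM2, which trim mannose from misfolded glycoproteins, had -0.06 (adjusted p = 0.36) and -0.02 (adjusted p = 0.83). SEL1L ran from 200.3 to 220.0 CPM in sh1 (median 204) and from 193 to 208 CPM in shNC (median 204), and its groups overlapped.

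Of the translocon, the channel through which new chains enter the ER, SEC61A1 had a log2 fold change of -0.03 (adjusted p = 0.71). Its locus overlaps MGLL and RUVBL1 on the opposite strand, at medians of 17.3 and 201.6 CPM. SEC61B ran from 19.4 to 31.5 CPM in sh1 (median 27.2) and from 28.8 to 39.9 CPM in shNC (median 29.5). sh1 replicate 3 was the lowest and shNC replicate 1 the highest library, and the groups overlapped. Its log2 fold change was -0.27 (SE 0.10, adjusted p = 0.067), and SEC61B passed the test without sh1 replicate 4 (-0.31, adjusted p = 0.036).

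The genes with an ERSE were set beside those without one. Of the 8 with the element, 4 were lower (HSPA5, CANX, XBP1 and CRELD2), none was higher, and the median log2 fold change was -0.15. Of the 23 without it, 5 were lower and 3 were higher, and the median was -0.03. These 23 include the 3 genes with an ERSE-II, HYOU1, HERPUD1 and SDF2L1, which did not pass the test. Of the 11 with either element, 4 were lower (median -0.15). Of the 20 with neither, 5 were lower and 3 were higher (median -0.02). Over all genes tested, 13.3% were lower and 12.8% were higher. Among genes at least as abundant as the lowest ER gene, 16.6% were lower and 14.2% were higher. None of the 4 lower genes with an ERSE kept the call under all 24 alternatives. These counts are a description and no test compared them.

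Pairs of genes with like roles were also compared within each library, since such a ratio does not depend on the scaling between libraries. The log2 ratio of counts per gene length was taken for 6 pairs and tested over libraries with an exact two-sided permutation test, whose smallest p for 6 against 6 is 0.0022. The pairs were chosen with earlier results of these data known and use the same 12 libraries, so the ratios restate the values of their genes on another scale and are no independent support for them. The ratio of CREB3L1 to CREB3L2 was -2.75 ± 0.13 in sh1 and -4.34 ± 0.32 in shNC (SD, n = 6 each), a difference of 1.59 (SE 0.139, exact permutation p = 0.0022, adjusted p = 0.013 over the 6 pairs). It was higher in all 6 sh1 libraries than in any shNC library. The ratio of ATF6 to ATF6B was -0.04 ± 0.14 in sh1 and 0.32 ± 0.18 in shNC, a difference of -0.37 (SE 0.0935, exact permutation p = 0.0065, adjusted p = 0.019). Per length, ATF6 and ATF6B were thus near equal in sh1 on average, while ATF6 was the more abundant in shNC on average. The groups overlapped, with shNC replicate 4 at 0.03, below sh1 replicate 3 at 0.05 and sh1 replicate 6 at 0.09.

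The ratio of PDIA3 to PDIA4 differed by 0.14 (exact permutation p = 0.048, adjusted p = 0.095) and passed only without sh1 replicate 1 (0.18, adjusted p = 0.019). The other 3 ratios did not pass the exact permutation test. They were CALR to CANX (difference 0.09, SE 0.0653, adjusted p = 0.30), ERO1A to ERO1B (0.08, SE 0.115, adjusted p = 0.53) and EDEM1 to EDEM2 (-0.04, SE 0.0724, adjusted p = 0.53).

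**Figure D4:**
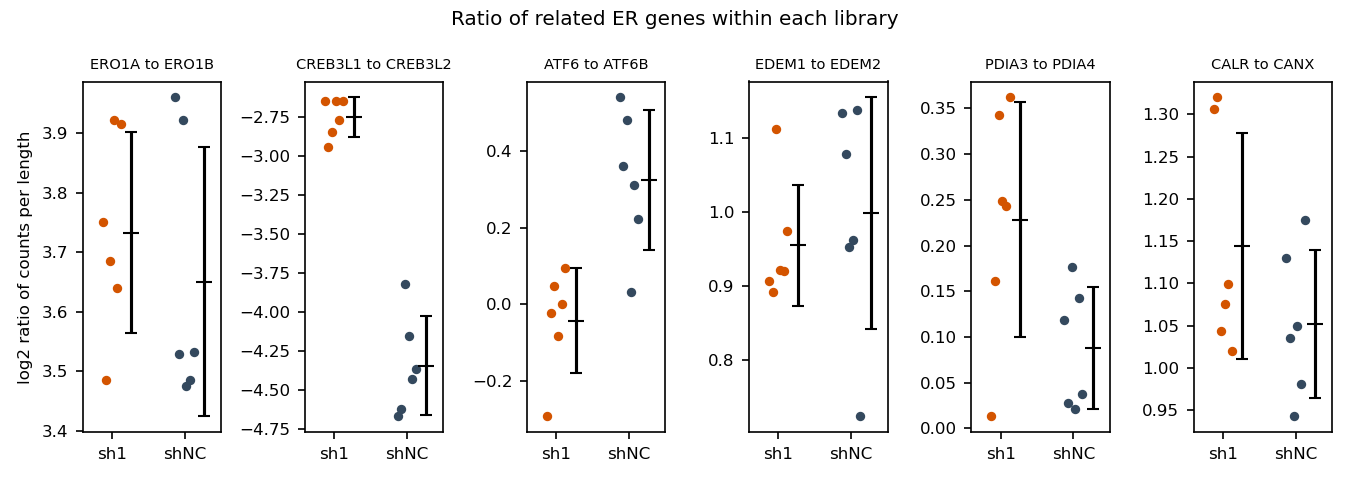
Log2 ratio of counts per gene length of 6 pairs of related ER genes in each library, sh1 left and shNC right, where each point is a library and bars give mean and SD (n = 6). CREB3L1 to CREB3L2 lies at -2.94 to -2.65 in sh1, above all shNC libraries at -4.67 to -3.82, and the vertical axes differ between panels.

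The wider ER machinery was described with 10 lists by role. Of their 168 genes, 161 were tested, 18 were higher and 35 were lower (11.2% and 21.7% of those tested), with a median log2 fold change of -0.05. The lower share again stood above the 13.3% of all genes and the 16.6% of the more abundant genes.

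**Figure D5:**
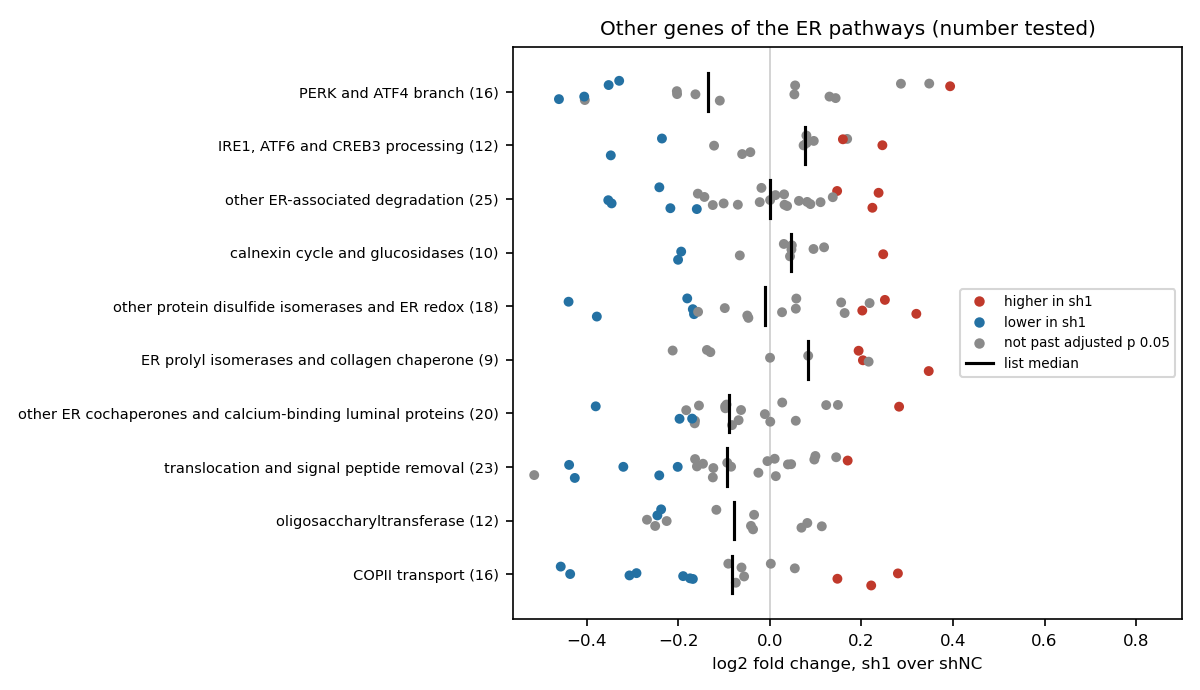
Log2 fold change, sh1 over shNC, of the tested genes in each of the 10 lists of ER genes. Each point is a gene, coloured as higher in sh1, lower in sh1 or not past the test, and a vertical line gives the list median. COPII transport holds the most lower genes, 7 of 16, and the prolyl isomerases and collagen chaperone hold none.

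In the PERK and ATF4 branch, 1 of 16 genes was higher and 4 were lower. ATF4, the transcription factor whose translation rises when eIF2 alpha is phosphorylated, averaged 377 ± 48.8 CPM in sh1 and 482 ± 48.3 CPM in shNC (log2 fold change -0.35, adjusted p = 0.0043). SESN2 (-0.41, adjusted p = 0.012) and CHAC2 (-0.33, adjusted p = 0.019) were also lower. SESN2 encodes a stress-induced regulator of nutrient signalling, and CHAC2 an enzyme of glutathione breakdown, whose call was lost without shNC replicate 5 (-0.29, adjusted p = 0.054). PPP1R15B, the constitutive counterpart of PPP1R15A, was higher, at 174 ± 7.79 CPM in sh1 and 132 ± 9.70 CPM in shNC (0.39, adjusted p = 3.2e-05).

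The list of IRE1, ATF6 and CREB3 processing also holds related factors, cofactors and regulators. Of its genes, 2 of 12 tested were higher and 2 were lower. MBTPS1, the Golgi protease that makes the first cut in ATF6 and CREB3L1, averaged 169 ± 8.71 CPM in sh1 and 151 ± 4.47 CPM in shNC (0.16, adjusted p = 0.014). YY1, a cofactor of ATF6 at the HSPA5 promoter, was higher (0.25, adjusted p = 0.0020). RTCB, the ligase that joins the XBP1 exons after the cut by ERN1, was lower (-0.24, adjusted p = 0.0017), as was TMBIM6, a membrane protein that restrains ERN1 (-0.35, adjusted p = 0.00028).

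In other ER-associated degradation, 3 of 25 tested genes were higher and 5 were lower. The lower genes included ERLIN1 (-0.35, adjusted p = 3.1e-05), part of a complex that degrades IP3 receptors, and SELENOS (-0.35, adjusted p = 0.00035), a selenoprotein of the retrotranslocation complex. The higher genes included the mannosidase MAN1B1 (0.24, adjusted p = 0.0082). VCP, the ATPase that pulls proteins out of the membrane, was the most abundant and had -0.02 (adjusted p = 0.81).

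In the calnexin cycle, 1 of 10 genes was higher and 2 were lower. GANAB, the catalytic subunit of glucosidase II, averaged 719 ± 41.0 CPM in sh1 and 606 ± 17.5 CPM in shNC (0.25, adjusted p = 0.00081). The cargo receptor subunit MCFD2 (-0.20, adjusted p = 0.0057) and the cargo lectin LMAN2 (-0.19, adjusted p = 0.021) were lower. The call of LMAN2 was lost without sh1 replicate 3, 4, 5 or 6 (adjusted p = 0.053 to 0.064).

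In the other disulfide isomerases and redox genes, 3 of 18 tested genes were higher and 5 were lower. ERP29, a luminal isomerase relative (-0.38, adjusted p = 8.3e-05), and the membrane-bound thioredoxin-like TMX4 (-0.44, adjusted p = 0.00024) and TMX2 (-0.17, adjusted p = 0.0085) were lower. QSOX1, a secretory pathway oxidase, was higher (0.32, adjusted p = 0.00052). SELENOF, the most abundant of the list, had -0.05 (adjusted p = 0.45).

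The prolyl isomerases and collagen chaperone were the list with no lower gene, and 3 of 9 were higher. By edgeR 1 was lower at an unadjusted p under 0.05. At an adjusted p under 0.05, DESeq2 and limma also called 0 lower and 3 higher. FKBP10, a collagen-binding prolyl isomerase, averaged 253 ± 19.4 CPM in sh1 and 199 ± 20.5 CPM in shNC (0.35, adjusted p = 0.0011). SERPINH1 (HSP47), the collagen chaperone, was higher (0.20, adjusted p = 0.020). PPIC was also higher (0.19, adjusted p = 0.042), but lost the call without sh1 replicate 1, 2, 3 or 5 or shNC replicate 1, 3, 5 or 6 (adjusted p = 0.051 to 0.084). PPIB, the most abundant, had -0.13 (adjusted p = 0.17).

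Among other cochaperones and luminal calcium-binding proteins, 1 of 20 tested genes was higher and 3 were lower. SIL1, a nucleotide exchange factor for HSPA5, was higher (0.28, adjusted p = 0.016). The membrane-anchored J protein DNAJB12 (-0.38, adjusted p = 8.8e-05), the KDEL receptor KDELR1 (-0.17, adjusted p = 0.0093), which returns luminal chaperones from the Golgi, and calumenin, CALU (-0.20, adjusted p = 0.022), were lower. The call of CALU was lost without sh1 replicate 1, 2 or 5 or shNC replicate 5 (adjusted p = 0.054 to 0.071).

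In translocation and signal peptide removal, 1 of 23 genes was higher and 5 were lower. The signal recognition particle subunits SRP54 (-0.32, adjusted p = 9.4e-05) and SRP72 (-0.24, adjusted p = 0.0017) and the translocon-associated SSR3 (-0.43, adjusted p = 0.0010) were lower, and TRAM2 was higher (0.17, adjusted p = 0.0043). SRP9, the most abundant, had -0.02 (adjusted p = 0.82). In the oligosaccharyltransferase, none of 12 genes was higher and 2 were lower, TUSC3 (-0.25, adjusted p = 0.0025) and OSTC (-0.24, adjusted p = 0.033). At an unadjusted p under 0.05 edgeR had 1 higher and 3 lower. At an adjusted p under 0.05 DESeq2 called 1 higher and 2 lower, and limma 1 higher and 1 lower. OSTC lost the call without sh1 replicate 1, 2, 3 or 5 or shNC replicate 1, 2, 3 or 5 (adjusted p = 0.058 to 0.091). RPN2, the most abundant, had 0.11 (adjusted p = 0.071) and passed the test without sh1 replicate 4 (adjusted p = 0.039) or shNC replicate 4 (adjusted p = 0.049).

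COPII transport, which carries folded cargo from the ER, had 7 of 16 genes lower and 3 higher. SAR1A, the small GTPase that starts the coat, averaged 154 ± 5.73 CPM in sh1 and 209 ± 13.6 CPM in shNC (-0.44, adjusted p = 6.2e-06). The cargo-binding coat subunits SEC24A (-0.46, adjusted p = 7.5e-05) and SEC24C (-0.29, adjusted p = 0.00086) and the cargo receptor TMED2 (-0.17, adjusted p = 0.010) were lower. MIA3 (TANGO1), which is needed to load collagen, was higher (0.28, adjusted p = 0.0014). MIA3 and these coat genes thus lay on opposite sides of 0.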

How the data were processed

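The authors sequenced polyadenylated RNA as read pairs with a kit that does not mark strand, aligned it with HISAT2 to GRCh38 and counted it with featureCounts. The sources used here name no versions of these tools. The authors deposited gene counts, a signal made of counts divided by 1 size factor per library, and FPKM values. Of 59248 rows, 572 had no Ensembl identifier and stayed in library totals. Of the other 58676, 58207 matched GENCODE 44.

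From the deposited counts, sh1 and shNC were compared in R 4.3.3 by the quasi-likelihood test of edgeR 4.0.16 (glmQLFit, glmQLFTest) after TMM scaling and filterByExpr, which kept 16489 genes, with Benjamini-Hochberg adjustment. The standard error of a log2 fold change was its size divided by the square root of F. The common biological coefficient of variation was 0.106. Ratios of gene pairs used counts plus 0.5 per gene length, and promoters were read from the RefSeq table.

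The genes, lists and pairs were chosen with earlier results of these data known. Text names all 32 genes, RUNX2, pseudogenes with counts and, per list, up to 4 genes with the smallest p among those called and the most abundant gene. A gene that this rule names is not reported here. The pseudogenes HSPA5P1, XBP1P1 and PDIA3P2 were under 1 CPM and were not tested. Of the 32 genes, 10 overlap another tested gene, 8 of them on the opposite strand, so their reads may be mixed. Alternatives were other scalings, filters, DESeq2 1.42.0, robust dispersion, the replicate number as a block, limma 3.58.1 on log2 FPKM with a pseudocount of 1 or 0.1, and leaving out each library. Leaving out sh1 replicate 3 and shNC replicate 1 together was added after the data had been seen.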

Additional observations from a re-analysis of the deposited data

Results flagged for a closer look

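In 148 checks of 6 libraries each, 8 libraries lay farther from the others of their group than Dixon's 95% critical value of 0.625 allows, where chance gives about 1 in 20, or 7.4. Of these, 5 concern the 32 ER genes (64 checks, 3.2 by chance). shNC replicate 1 had 146 CPM of PPP1R15A, against 270.6 to 336.8 in the other shNC libraries. It had 10.6 CPM of SDF2L1, against 4.85 to 6.74, and 17.9 CPM of CRELD2, against 15.1 to 16.0. sh1 replicate 1 had 583.6 CPM of P4HB, against 480.6 to 516.9 in the other sh1 libraries. shNC replicate 6 had 230.5 CPM of EDEM1, against 257.4 to 269.5 in the other shNC libraries.

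In the wider lists, shNC replicate 1 had 389 CPM of ATF4, against 484.5 to 532 in the other shNC libraries. sh1 replicate 3 had 99.2 CPM of ERP29, against 113 to 120 in the other sh1 libraries. sh1 replicate 1 had 87.0 CPM of MAN1B1, against 68.2 to 73.1 in the other sh1 libraries.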

How the results depend on the processing

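Of the 12 ER genes past the test, ATF6B, CREB3L1, PDIA4 and ERO1A kept the call under all 24 alternatives, and CREB3L2 and CRELD2 also without each single library. The 9 lower genes were 6 with upper quartile scaling, 6 with library totals, 5 with limma on log2(FPKM + 1), 5 on log2(FPKM + 0.1) and 3 without sh1 replicate 3 and shNC replicate 1. Without single libraries 4 to 8 genes were lower, of which 4 to 7 were among the 9, and 3 to 4 were higher. Replicate numbers shared no deviation (correlations -0.162 to 0.0334, none of 6 over 0.1). No sh1 and shNC library of the same number were each other's best match. With the replicate block, 7 genes were lower and 3 were higher. XBP1 (adjusted p = 0.081), CANX (0.085) and DNAJB11 (0.069) lost the call and SDF2L1 gained it (0.035), so 6 of the 9 were kept. The block's smallest exact permutation p is 0.0312, and the ratios of CREB3L1 to CREB3L2 (1.59) and of ATF6 to ATF6B (-0.37) then had an adjusted p of 0.094. Without single libraries these ratios ran from 1.53 to 1.70 and from -0.43 to -0.32, and PDIA3 to PDIA4 from 0.11 to 0.18. Signs turned only in genes that did not pass the test. PPP1R15A had 0.0333 and 0.0323 in the limma fits with pseudocounts 0.1 and 1, 0.0141 with the block and -0.1515 to 0.0541 without single libraries. Without single libraries EDEM2 ran from -0.0384 to 0.0083, VCP from -0.0458 to 0.0120 and SRP9 from -0.0526 to 0.0131. Without sh1 replicate 3 and shNC replicate 1, CALR had 0.0253, PDIA6 0.0137 and SRP9 0.0485. The cause of these shifts was not tested.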
